A study of Zea mays with 6 samples.

Results

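The genes described here are the 4 regulators of the KNOX, WOX and BELL homeobox families picked by gene ID from a table of 5546 maize genes: ZmKN1 (GRMZM2G017087), a WUSCHEL-related homeobox 4-like gene (GRMZM6G260565), a WUSCHEL-related homeobox 9-like gene (GRMZM2G116063) and the gene for BEL1-related homeotic protein 14 (GRMZM2G327059). They are called KN1, WOX4-like, WOX9-like and BEL1-related 14 below. They were picked for their family, and the choice used no measured value. Every gene of the table, however, had been called by the authors between these same libraries, so each of the 4 had to differ. The table lists 5 genes described as WUSCHEL-related, of which 2 are described in full here, and 2 genes described as KNOX or BEL1 genes, which are both among the 4.

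RNA was sequenced from WT, which is the inbred line B73, and from zmte1-2, with 3 libraries of each genotype. The seedlings were 28 days old and grown in a field, and the tissue was nodes, taken with internodes by the labels and the Results, although the Methods name nodes alone. zmte1-2 is a dwarf mutant from an EMS screen that was backcrossed to B73 and carries a premature stop codon in ZmTE1, which encodes an RNA-binding protein of the TERMINAL EAR family. The labels spell the genotype zmet1, and no treatment is given for any library although the title of the series names auxin.

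KNOX and BELL proteins are both homeodomain proteins of the TALE class, which pair with each other to bind DNA. KN1 is the founding KNOX gene of maize, is expressed in shoot meristem cells and the young stem, is shut off where a leaf is initiated, and keeps meristem cells from differentiating. WOX proteins are a separate homeodomain family whose members hold stem cell populations in shoot, root and vascular meristems, and in Arabidopsis WOX4 acts in the cambium.

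The values are FPKM, which counts sequenced fragments relative to transcript length and to the size of the library. Depth is unknown, so a low FPKM has no counting interval. ZmTE1 (GRMZM2G085113) itself was listed at 0.51, 1.19 and 1 FPKM in WT and at 0.33, 0.1 and 0.49 FPKM in zmte1-2. The groups did not overlap, and the values were too low for the test below (log2 fold change -0.79 and limma adjusted p = 0.0777 without a filter). Library 2 of zmte1-2 stood apart: its correlations across 3987 genes were 0.73 and 0.63 with zmte1-2 libraries 1 and 3, which had 0.94 with each other, and 0.61 to 0.70 with the WT libraries. WT library 1 also stood apart, at 0.79 and 0.84 with WT libraries 2 and 3, which had 0.93 with each other. Libraries 1 and 3 of zmte1-2 had 0.75 and 0.76 with WT library 2, against 0.73 and 0.63 with zmte1-2 library 2. Deviations from the genotype means correlated at 0.52 between WT library 1 and zmte1-2 library 2. Whether the libraries are separate plants or node positions is not stated. The p-values here reflect library-to-library spread that may be technical or due to position. Genes with at least 1 FPKM in at least 3 libraries were compared with limma on log2(FPKM + 0.5), two-sided, with a call at an adjusted p (Benjamini-Hochberg) under 0.05. All 4 genes passed this filter. Of the 3987 genes tested, 1363 were called lower and 240 higher in zmte1-2, with a median log2 fold change of -1.08. Median-of-ratios rescaling over the listed genes moved that median by 0.99 to -0.09 and turned the counts to 206 lower and 532 higher, so each fold change is read beside this median. The rescaling takes most genes to be unchanged, while every listed gene had been called by the authors. It therefore cannot show which scale is right, and results after it are given as a description.

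WOX4-like and WOX9-like fell in zmte1-2, KN1 had a lower mean with groups that overlapped, and BEL1-related 14 had higher values that did not pass the test. By limma 2 of the 4 genes were called lower, where 34.2% of all tested genes were lower, and 0 of the 4 were called higher, where 6.02% of all tested genes were higher. Both genes called lower, WOX4-like and WOX9-like, passed the filter described above only through WT. At an unadjusted limma p under 0.05, BEL1-related 14 was also higher and KN1 also lower. At that limit 2133 of all 3987 tested genes were lower and 441 higher. The groups did not overlap, with lower values in zmte1-2, in 2 of the 4 genes and in 48.8% of all listed genes. They did not overlap in the higher direction in 1 of the 4 genes and in 11.4% of all listed genes. With 4 genes, these shares are near those of the whole table and are given as a description.

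**Figure D1:**
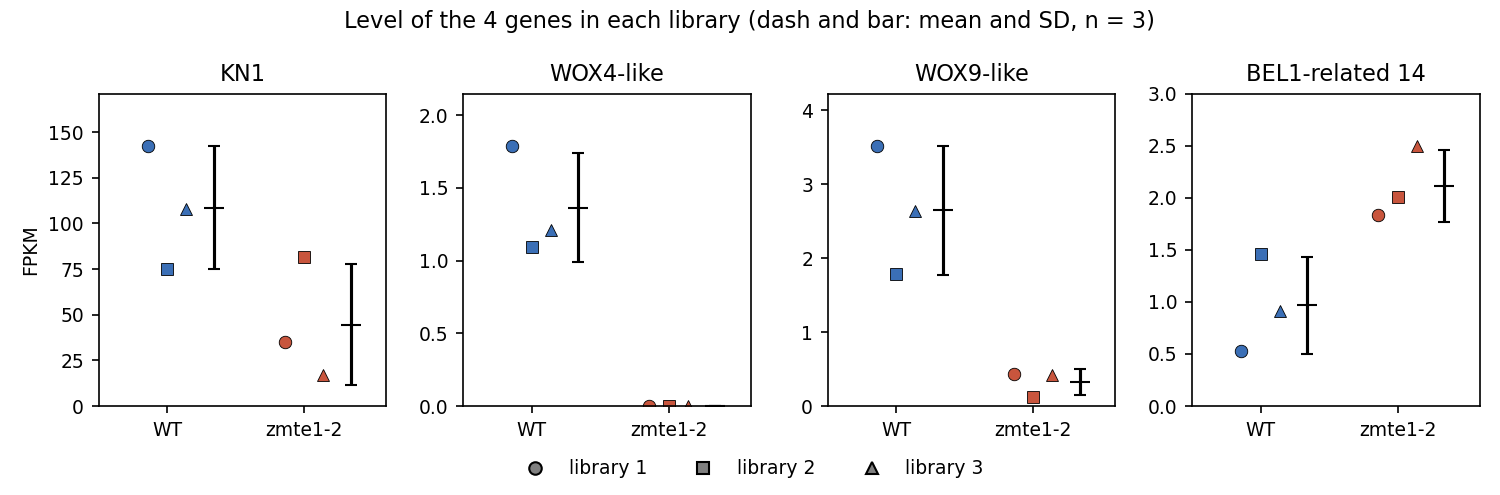
FPKM (vertical axis, a separate scale for each gene) of the 4 genes in the 3 WT and 3 zmte1-2 libraries, with library number by symbol and the mean and SD beside the points. KN1 in zmte1-2 library 2 (81.65 FPKM) lies above KN1 in WT library 2 (75.29 FPKM), WOX4-like is at 0 in all zmte1-2 libraries, and BEL1-related 14 is above WT in each zmte1-2 library.

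KN1 is annotated on chromosome 1 from 271407490 to 271415210 on the minus strand with 3 transcripts, in coordinates of the authors' table (build not given in the sources used here). It was listed at 142.66, 75.29 and 108.02 FPKM in WT libraries 1 to 3. In zmte1-2 libraries 1 to 3 it was listed at 35.33, 81.65 and 16.97 FPKM. Libraries 1 and 3 of zmte1-2 lay below every WT library, while library 2 lay above WT library 2, so the groups overlapped.

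The KN1 mean was 109 ± 33.7 in WT and 44.6 ± 33.3 in zmte1-2 (FPKM, SD, n = 3), which is 41.1% of the WT mean. The log2 fold change was -1.51 (SE 0.63, 95% interval -3.0 to -0.01), and KN1 was not called (limma adjusted p = 0.0756). An exact permutation test over the 6 libraries gave a two-sided p = 0.2, where 0.1 is the smallest p that 3 against 3 can give. The interval holds both a large difference and almost none. KN1 was by far the most abundant of the 4 genes: by mean FPKM it ranked 116 among the 5546 listed genes in WT and 437 in zmte1-2. In nodes sequenced as bulk tissue, fewer KN1-expressing cells and less KN1 RNA per cell cannot be told apart.

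The KN1 result turned on library 2 of zmte1-2. Within zmte1-2 the highest KN1 value was 4.81 times the lowest, against 1.89 times within WT. Without zmte1-2 library 2, KN1 was called lower (log2 fold change -2.08, limma adjusted p = 0.0122), in a fit that called 48.9% of all tested genes lower. It was also called lower with WT library 1 left out as well (-1.86, limma adjusted p = 0.0189, 44.8% of all tested genes lower). After median-of-ratios rescaling the log2 fold change of KN1 was -0.35 (limma adjusted p = 0.801) beside a median of -0.09 for all tested genes.

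BEL1-related 14 encodes a BELL protein, the class of partner that KNOX proteins such as KN1 pair with. The gene is annotated on chromosome 1 from 5080780 to 5086704 on the plus strand with 6 transcripts. It was listed at 0.53, 1.46 and 0.91 FPKM in WT and at 1.83, 2.01 and 2.5 FPKM in zmte1-2. Every zmte1-2 library lay above every WT library, and zmte1-2 library 2, apart from the others for KN1, lay between them here.

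The mean of BEL1-related 14 was 0.967 ± 0.468 in WT and 2.11 ± 0.347 in zmte1-2 (FPKM, SD, n = 3), a ratio of 2.19. The log2 fold change was 0.87 (SE 0.33, 95% interval 0.09 to 1.66), and the gene was not called (limma adjusted p = 0.0626). The exact permutation test gave p = 0.1, the smallest it can give. The gene passed the filter through zmte1-2, since 1 WT library alone reached 1 FPKM. By mean FPKM the gene ranked 4158 in WT and 2742 in zmte1-2. After median-of-ratios rescaling it was called higher (log2 fold change 1.67, limma adjusted p = 0.0244), where 13.3% of all tested genes were called higher.

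WOX4-like is annotated on chromosome 10 from 144893352 to 144894218 on the plus strand with 2 transcripts, and RefSeq gives it the synonym wox4. It was listed at 1.79, 1.09 and 1.21 FPKM in WT, a mean of 1.36 ± 0.374 FPKM (SD, n = 3). In each of the 3 zmte1-2 libraries it was listed at 0. WOX4-like was called lower (limma adjusted p = 0.00966, exact permutation p = 0.1), and no fold change is given because the zmte1-2 libraries were at 0.

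WOX4-like passed the filter only through the WT libraries, each of which was just above 1 FPKM, so a tested gene at 0 in zmte1-2 had to differ. Among the listed genes, 80 were at 0 in all zmte1-2 libraries, of which 4 were tested, and 67 were at 0 in all WT libraries. Being listed at 0 was therefore not particular to WOX4-like or to zmte1-2. WOX4-like ranked 3813 in WT by mean FPKM. Its call was lost without WT library 3 (limma adjusted p = 0.0586) and without zmte1-2 library 1 (limma adjusted p = 0.0689), fits in which 0.0502% and 0.0251% of all tested genes were called lower.

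WOX9-like is annotated on chromosome 3 from 178369720 to 178371133 on the plus strand with 1 transcript. The deposited description names it after WOX9, which promotes cell division in Arabidopsis meristems, while RefSeq gives the same ID the synonym wox5B, and WOX5 marks the quiescent centre of the Arabidopsis root. Which of these names fits was not tested. The gene starts 13.1 Mb beyond the end of ZmTE1 on the same chromosome.

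WOX9-like was listed at 3.52, 1.78 and 2.63 FPKM in WT and at 0.43, 0.12 and 0.42 FPKM in zmte1-2. The highest zmte1-2 library lay below the lowest WT library, and zmte1-2 library 2 was the lowest of all. The mean was 2.64 ± 0.87 in WT and 0.323 ± 0.176 in zmte1-2 (FPKM, SD, n = 3), which is 12.2% of the WT mean. WOX9-like fell by 1.92 on the log2 scale (SE 0.33, 95% interval -2.69 to -1.15, limma adjusted p = 0.0132, exact permutation p = 0.1). By mean FPKM it ranked 3089 in WT and 4629 in zmte1-2.

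WOX9-like also passed the filter only through WT, since all zmte1-2 values were under 1 FPKM. Its groups therefore had to separate, and its calls in this and every other fit are given as a description. WOX9-like remained called after median-of-ratios rescaling (log2 fold change -1.18, limma adjusted p = 0.0389), where 5.17% of all tested genes were called lower. Its call was lost without WT library 3 (limma adjusted p = 0.0677) and without zmte1-2 library 1 (limma adjusted p = 0.0722), while the fold change stayed between -2.13 and -1.72 whichever library was left out.

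**Figure D2:**
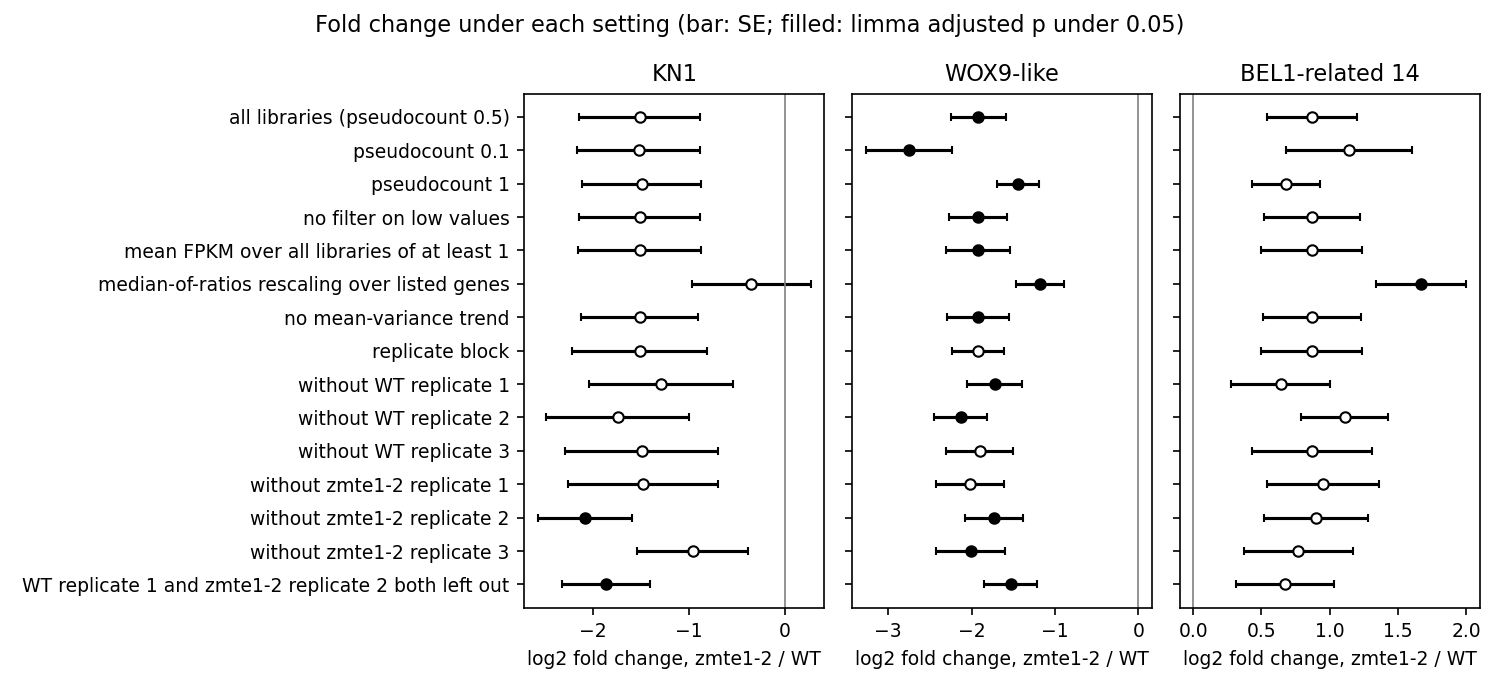
log2 fold change of zmte1-2 over WT (horizontal axis, bars show the SE) for KN1, WOX9-like and BEL1-related 14 in the fit of all libraries and under 14 alternatives; filled points have a limma adjusted p under 0.05. Each gene keeps its direction in every row, which only the rescaling could have changed for WOX9-like and BEL1-related 14, whose groups do not overlap. KN1 is filled only in the rows without zmte1-2 library 2. WOX4-like is left out because its zmte1-2 values are 0.

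The genes also differed between libraries of 1 genotype. In WT, KN1, WOX4-like and WOX9-like were highest in library 1 and lowest in library 2, by 0.44, 0.32 and 0.39 above and by -0.48, -0.21 and -0.43 from their WT means of log2(FPKM + 0.5). BEL1-related 14 had the reverse order in WT, at -0.46 in library 1 and 0.47 in library 2. In zmte1-2 the genes parted: library 2 was the highest for KN1 (1.14) and the lowest for WOX9-like (-0.38), and it was near the mean for BEL1-related 14 (-0.05).

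Ratios between genes within a library do not depend on how libraries are scaled, and 3 such ratios were computed; they were chosen after the values were seen. BEL1-related 14 was at 0.372%, 1.94% and 0.842% of the KN1 level in WT and at 5.18%, 2.46% and 14.7% in zmte1-2. All zmte1-2 ratios lay above all WT ratios, with zmte1-2 library 2 closest to WT. The difference of mean log2 ratios was 2.76 (SD 1.19 in WT and 1.30 in zmte1-2, n = 3), with an exact permutation p = 0.1, adjusted p = 0.15 over the 3 ratios, and it was 2.08 to 3.37 with any 1 library left out. BEL1-related 14 was below KN1 in every library.

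WOX9-like was at 2.47%, 2.36% and 2.43% of the KN1 level in WT, a nearly constant ratio although KN1 itself varied by 1.89 times between these libraries. In zmte1-2 the ratio was 1.22%, 0.147% and 2.47%. Library 3 of zmte1-2 matched the WT ratio, library 2 was far below it, and the groups overlapped. The mean log2 difference was -1.67 (SD 0.03 in WT and 2.12 in zmte1-2, n = 3, exact permutation p = 0.4, adjusted p = 0.4), and it was -0.48 without zmte1-2 library 2. The ratio of BEL1-related 14 to WOX9-like was 15.1%, 82% and 34.6% in WT and 426%, 1680% and 595% in zmte1-2. It was under 100% in each WT library and above it in each zmte1-2 library, with a mean log2 difference of 4.43 (SD 1.22 and 1.03, n = 3). Both genes already separated the groups, in opposite directions, so their ratio had to separate them too. Its exact permutation p = 0.1 (adjusted p = 0.15) was therefore fixed in advance and tests nothing further. The zmte1-2 percentages divide by WOX9-like values of only 0.12 to 0.43 FPKM. A ratio shows unequal change and not which gene changed.

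Sums of markers of dividing cells and of green leaf cells were lower in zmte1-2. The 26 listed markers of dividing cells (17 core histones, 6 linker histones H1, 2 small chains of ribonucleotide reductase and PCNA) summed to 6880, 4220 and 6580 FPKM in WT and to 2110, 2260 and 3110 FPKM in zmte1-2. Of these markers 23 did not overlap between the groups and were lower in zmte1-2, beside 48.8% of all listed genes. Of the 25 tested, 8 were called lower by limma (24 at an unadjusted p under 0.05) and 0 higher (0 unadjusted), beside 34.2% and 6.02% of all tested genes, so the share called lower was about that of the whole table. Unadjusted, 2133 of all 3987 tested genes were lower and 441 higher. KN1 was at 2.07%, 1.78% and 1.64% of that sum in WT and at 1.68%, 3.62% and 0.545% in zmte1-2. The groups overlapped, and the mean log2 difference was -0.29 (exact permutation p = 0.8). The 35 listed markers of green leaf cells, mostly chlorophyll-binding and photosystem proteins, summed to 374 to 1330 FPKM in WT and to 173 to 281 FPKM in zmte1-2, with 15 of 30 tested called lower by limma and 0 higher (24 and 0 at an unadjusted p under 0.05), beside the same 34.2% and 6.02%. GRMZM2G018627 and GRMZM2G414192 share coordinates and values, so that locus is counted again in these numbers and sums. The leaf list also holds PEP carboxylase kinases. The dividing-cell list was planned with A and B cyclins, which it does not hold, and without linker histones H1, which it does hold. After median-of-ratios rescaling 0 markers of either list were called by limma, where 5.17% of all tested genes were called lower and 13.3% higher. Without WT library 1 or zmte1-2 library 3, 0 leaf markers were called lower, against 24 without WT library 2. Dividing-cell markers called lower numbered 0, 1 and 3 with WT library 1, zmte1-2 library 3 and WT library 2 dropped in turn. In the same order, 3.71%, 17.6% and 25.5% of all tested genes were called lower. In WT both sums were highest in library 1 and lowest in library 2, the order seen for KN1 and both WOX genes. In zmte1-2 the dividing-cell sum was highest in library 3, where KN1 was lowest. The leaf sum there was highest in library 2 and lowest in library 3, as KN1 was. The part of these markers in the results was not tested.

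**Figure D3:**
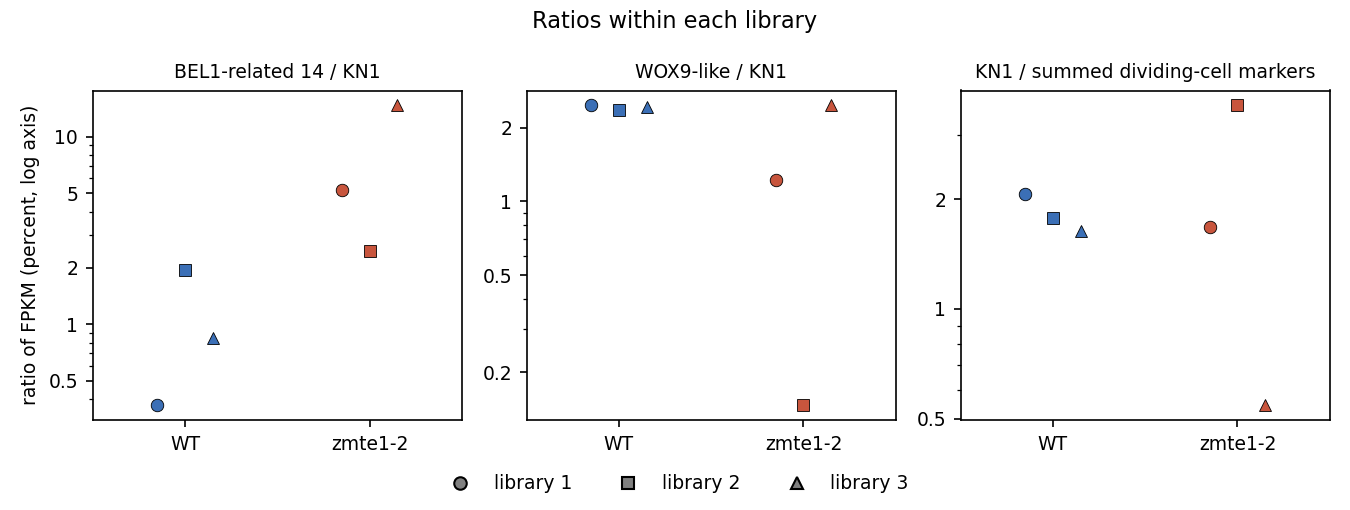
Ratios within each library in percent on log axes: BEL1-related 14 to KN1, WOX9-like to KN1, and KN1 to the summed dividing-cell markers, for the 3 WT and 3 zmte1-2 libraries by symbol. The BEL1-related 14 ratio is higher in all zmte1-2 libraries, the WOX9-like ratio is nearly constant in WT (2.36% to 2.47%), and KN1 per dividing-cell markers overlaps between the groups.

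The other WUSCHEL-related genes of the table, 3 in number, were tested and not called. WOX9 (GRMZM2G478396) was listed at 1.45, 1.38 and 2.56 FPKM in WT and at 0.71, 0.21 and 0.92 FPKM in zmte1-2, so its groups did not overlap, but it was not called (log2 fold change -1.07, 95% interval -1.93 to -0.20, limma adjusted p = 0.0523). WOX6 (GRMZM2G314064) was at 3.03, 10.45 and 9.4 FPKM in WT and at 30.05, 11.82 and 29.49 FPKM in zmte1-2. All zmte1-2 libraries were higher, and WOX6 was not called (1.63, 95% interval 0.19 to 3.07, limma adjusted p = 0.0614). WOX11 (GRMZM2G170958), whose relatives in rice and Arabidopsis act in crown and adventitious root formation, was at 0.58, 2.5 and 3.97 FPKM in WT and at 17.59, 1.23 and 20.19 FPKM in zmte1-2, with library 2 inside the WT range (1.83, 95% interval -0.63 to 4.28, limma adjusted p = 0.151). No test of the difference between WOX genes was made.

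The remaining homeobox genes were mostly of the homeodomain-leucine zipper and zinc-finger homeodomain families. Of 23 homeobox genes other than the 4, 18 were tested, 9 were called lower and 0 higher, with a median log2 fold change of -1.05 beside -1.08 for all tested genes; after median-of-ratios rescaling 2 were lower and 2 higher. At an unadjusted limma p under 0.05, 11 were lower and 2 higher. Without zmte1-2 library 2, 9 were called lower and 6 higher; without WT library 1, 1 was lower, and without zmte1-2 library 3, 2 were lower. Without WT library 3 or without zmte1-2 library 1, limma called 0 genes of this list and of every other list given here. By family, 5 of 9 leucine zipper genes and 2 of 3 zinc-finger genes were called lower. Here and for each list that follows, the share over all tested genes was 34.2% lower and 6.02% higher in the fit of all libraries. At an unadjusted limma p under 0.05, 2133 of the 3987 tested genes were lower and 441 higher. After rescaling the shares were 5.17% and 13.3%. They were 48.9% and 20.2% without zmte1-2 library 2, and 17.6% and 1.86% without zmte1-2 library 3. They were 3.71% and 0.251% without WT library 1, and 25.5% and 4.11% without WT library 2.

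ATHB-4 (GRMZM2G068672), a leucine zipper gene named after an Arabidopsis regulator of shade responses, was at 25.23, 13.99 and 13.74 FPKM in WT and at 0.75, 0.79 and 2.46 FPKM in zmte1-2 and fell by 3.37 on the log2 scale (limma adjusted p = 0.0114). HOX32 (GRMZM2G023291), named after a rice gene of the leucine zipper class that patterns vascular tissue and leaf sides, was at 74.43, 58.51 and 73.37 FPKM in WT and at 24.86, 26.83 and 22.81 FPKM in zmte1-2 and fell by 1.45 (limma adjusted p = 0.0279). For both, all zmte1-2 libraries lay far below WT, library 2 included. A zinc-finger homeodomain 1-like gene (GRMZM2G389379) fell by 1.74 (limma adjusted p = 0.0148); it was under 1 FPKM in all zmte1-2 libraries and passed the filter only through WT, as did WOX9 above. For the 2 other abundant homeobox genes zmte1-2 library 2 lay in or below the WT range while libraries 1 and 3 lay above it: Homeobox-transcription factor 84 (GRMZM2G099319) at 100.51, 30.19 and 80.18 FPKM and ATHB-6 (GRMZM2G117164) at 85.3, 1.63 and 60.09 FPKM in zmte1-2, beside WT ranges of 25.53 to 36.27 and 2.85 to 22.8 FPKM.

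Signals and boundary genes of the meristem were at low levels. The list of 6 such genes includes ZmTE1, and only 1 was tested: OsCLE701 (GRMZM2G474685), a CLE peptide of the family whose members signal to meristem cells, at 1.79, 1.14 and 1.83 FPKM in WT and 0.4, 0.32 and 0.27 FPKM in zmte1-2, which fell by 1.31 on the log2 scale (limma adjusted p = 0.0169) and was not called after median-of-ratios rescaling or without WT library 1. It passed the filter only through WT, so its call is no support for the list. OsCLE401 (GRMZM6G446684) was at 1.89, 0.59 and 1.8 FPKM in WT and 0.16, 0.08 and 0.41 FPKM in zmte1-2. Of the 6 genes, 5 had zmte1-2 values entirely below WT, beside 48.8% of all listed genes. The CUP-SHAPED COTYLEDON 1 genes, NAC factors that mark organ boundaries, parted: GRMZM2G430522 was at 1.15, 0.88 and 1.81 FPKM in WT and 0.04, 0.32 and 0.1 FPKM in zmte1-2, while GRMZM2G139700 overlapped, at 0.5, 0.32 and 0.51 against 1.93, 0.19 and 1.21 FPKM.

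Growth-regulating factors (GRF) and their coactivators act in growing leaves and shoot meristems. Of 6 listed genes 5 were tested and 0 were called in either direction by limma (3 lower and 0 higher at an unadjusted p under 0.05), with a median log2 fold change of -1.28. Without zmte1-2 library 2, 1 was called lower. GRF-interacting factor 1 (GRMZM2G180246), whose maize mutant has altered meristem determinacy, was at 47.13, 29.8 and 53.1 FPKM in WT and at 15.82, 2.47 and 24.93 FPKM in zmte1-2. The groups did not overlap, and it was not called (-1.99, 95% interval -3.91 to -0.07, limma adjusted p = 0.0719). A growth-regulating factor (GRMZM2G129147) was at 15.42, 10.46 and 18.01 FPKM in WT and at 5.74, 9.47 and 3.11 FPKM in zmte1-2 (-1.28, 95% interval -2.44 to -0.13, limma adjusted p = 0.0631). Like KN1, it had its highest zmte1-2 value in library 2, where GRF-interacting factor 1 had its lowest.

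OVATE family proteins are repressors that in Arabidopsis bind TALE homeodomain proteins, the class of KN1 and BEL1-related 14. Of 16 listed genes 9 were tested, and 5 were called lower and 0 higher, with a median log2 fold change of -1.79 (8 lower and 0 higher at an unadjusted limma p under 0.05). After median-of-ratios rescaling, and also without WT library 1, 2 were lower and 0 higher. An OFP transcription factor (GRMZM2G106781) was at 8.65, 4.6 and 5.41 FPKM in WT and at 1.51, 2.21 and 0.72 FPKM in zmte1-2 and fell by 1.79 (limma adjusted p = 0.0273). The pair with the smallest p fell by 2.18 (GRMZM2G013271) and 2.28 (GRMZM2G037043), both with a limma adjusted p = 0.0111. These are among 3 of the 9 tested OVATE genes, all 3 called lower, that were under 1 FPKM in every zmte1-2 library and passed the filter only through WT. OFP14 (GRMZM2G001721) had the opposite sign without a call, at 0.8, 2.8 and 10.77 FPKM in WT and 17.63, 0.53 and 17.87 FPKM in zmte1-2 (0.94, 95% interval -2.10 to 3.98, limma adjusted p = 0.510). In 14 of the 16 listed genes all zmte1-2 libraries lay below WT, where 48.8% of all listed genes did so.

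Gibberellin genes are given because maize KN1 binds a gene for gibberellin 2-oxidase, an enzyme that inactivates gibberellin. Of 15 listed genes 10 were tested, 2 were lower and 2 higher, with a median log2 fold change of 0.91 beside -1.08 for all tested genes. After rescaling 1 was lower and 5 were higher, and without zmte1-2 library 2, 4 were lower and 5 higher. Without WT library 1, 1 was lower and 0 higher. Gibberellin 2-oxidase9 (GRMZM2G152354) was at 11.35, 8.13 and 12.54 FPKM in WT and at 1.34, 0.93 and 0.48 FPKM in zmte1-2 and fell by 3.0 on the log2 scale (limma adjusted p = 0.0106). Another gene of the same enzyme class went the other way: gibberellin 2-beta-dioxygenase 8 (GRMZM2G153359) was at 0.97, 1.33 and 0.19 FPKM in WT and at 5.79, 7.33 and 2.56 FPKM in zmte1-2 and rose by 2.11 (limma adjusted p = 0.0283). GRMZM2G006964, with a gibberellin orthology term but no described protein, rose by 2.01 (limma adjusted p = 0.0171), and ent-kaurene oxidase 2 (GRMZM2G161472), a synthesis enzyme, fell by 1.35 (limma adjusted p = 0.0426). GRMZM2G153359 and GRMZM2G161472 were named after their values were seen, to complete the called genes. Gibberellin 2-beta-dioxygenase 1 (GRMZM2G031432), of the 2-oxidase class and also named after its values were seen, was under the filter. It was at 0.31, 0.55 and 0.46 FPKM in WT and at 5.92, 0.36 and 5.32 FPKM in zmte1-2, with library 2 in the WT range. Which of the 2-oxidase genes named here KN1 binds, if any, was not determined. Gibberellin 20-oxidase1 (AC203966.5_FG005), a synthesis enzyme, was at 15.51, 13.14 and 10.79 FPKM in WT and at 67.34, 13.17 and 59.69 FPKM in zmte1-2, with library 2 in the WT range (1.5, 95% interval -0.07 to 3.07, limma adjusted p = 0.0853). CYP88A1 (GRMZM2G093195), also of gibberellin synthesis, was at 28.59 to 35.41 FPKM in WT and at 92.38, 39.53 and 74.12 FPKM in zmte1-2 and was not called (1.03, 95% interval -0.02 to 2.09, limma adjusted p = 0.0808).

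Cytokinin genes are given because KNOX proteins promote cytokinin synthesis in Arabidopsis and rice. Of 27 listed genes 16 were tested, and 6 were called lower and 1 higher, with a median log2 fold change of -1.15; after rescaling 1 was lower and 1 higher. None of the 6 called lower has cytokinin in its description. They are described as Myb factors, as the response regulator-like APRR9 (GRMZM2G367834), or as uncharacterized, unknown or hypothetical. Their count is therefore no count of described cytokinin genes. Without zmte1-2 library 2, 11 were lower and 2 higher, without WT library 1, 0 were called, and without WT library 2 or zmte1-2 library 3, 2 were lower and 0 higher. The 2 with the smallest p were a Myb family factor (GRMZM2G069525), at 7.19, 2.67 and 5.57 FPKM in WT and 0.1, 0.71 and 0.32 FPKM in zmte1-2 (-2.65, limma adjusted p = 0.0131), and an uncharacterized protein (GRMZM2G471600), which fell by 1.79 (limma adjusted p = 0.0192). Both are in the list by orthology to response regulators, and the Myb gene, under 1 FPKM in all zmte1-2 libraries, passed the filter only through WT. The gene called higher, named after its value was seen, was cytokinin-O-glucosyltransferase 2 (GRMZM2G363545), of an enzyme class that conjugates cytokinin, at 6.17, 7.04 and 6.15 FPKM in WT and 21.92, 11.75 and 41.66 FPKM in zmte1-2 (1.70, limma adjusted p = 0.0411). Cytokinin oxidase 2 (GRMZM2G050997), of the enzymes that break cytokinin down, was at 5.39, 26.11 and 11.36 FPKM in WT and at 80.1, 11.43 and 67.18 FPKM in zmte1-2 (1.71, 95% interval -0.38 to 3.80, limma adjusted p = 0.122). Cytokinin oxidase4b (GRMZM2G024476) had the reverse order in zmte1-2, at 18.39, 136.6 and 5.76 FPKM, so both overlapped with WT.

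**Figure D4:**
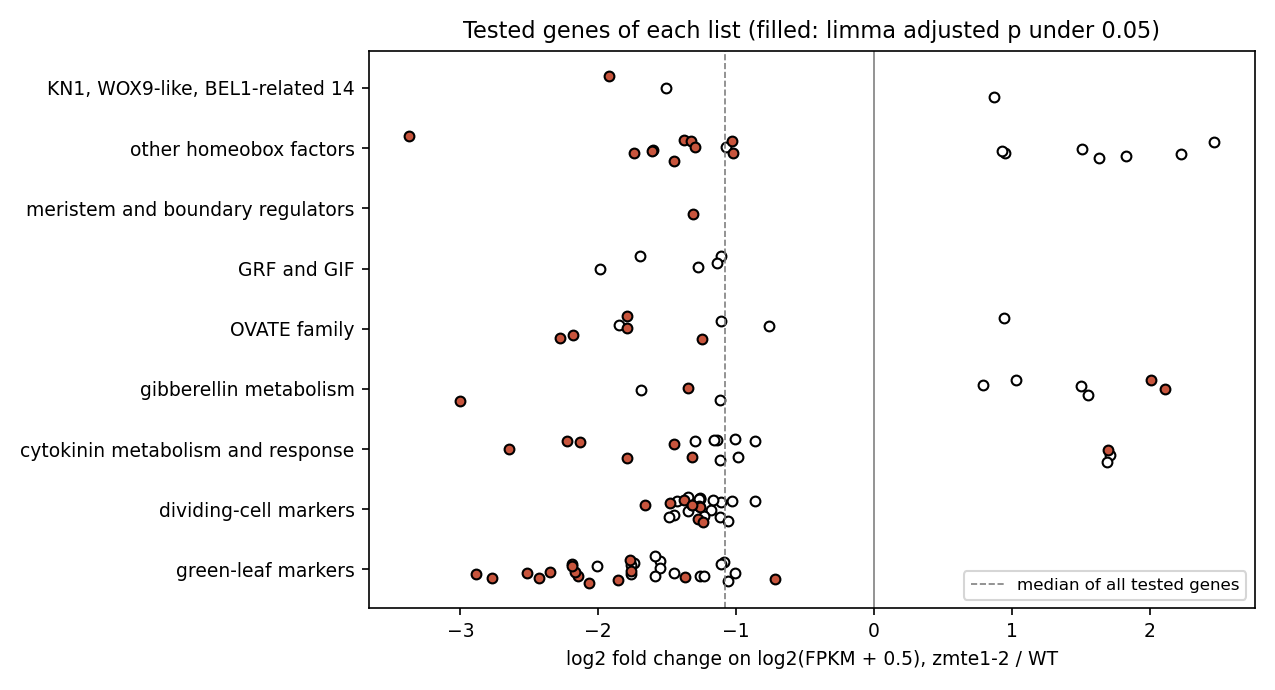
log2 fold change of zmte1-2 over WT (horizontal axis, log2(FPKM + 0.5) scale) for each tested gene of the 8 lists and for KN1, WOX9-like and BEL1-related 14; filled points have a limma adjusted p under 0.05 and the dashed line is the median of all 3987 tested genes (-1.08). The median of the gibberellin genes is 0.91, while the medians of the other lists drawn run from -1.79 (OVATE) to -1.05 (other homeobox). Genes of the gibberellin, other homeobox, cytokinin and OVATE lists lie on both sides of 0. Genes listed at 0 in all libraries of a genotype, WOX4-like among them, are not drawn.

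The genes most like each of the 4 over the 6 libraries were found by Pearson correlation of log2(FPKM + 0.5) among 2107 tested genes with a described protein. The points are libraries of both genotypes, so a shared difference between genotypes raises the value, and no p is given. For KN1 they were a RING zinc finger protein (GRMZM2G056786, r = 0.999), barley mlo homolog 5 (GRMZM2G471142, r = 0.997) and a chemocyanin precursor (GRMZM2G177934, r = 0.995). The chemocyanin gene ran at a level like that of KN1, with 105.27, 59.61 and 100.19 FPKM in WT and 25.63, 71.31 and 11.59 FPKM in zmte1-2, high again in zmte1-2 library 2, and was not called (limma adjusted p = 0.0797).

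For WOX4-like they were tesmin/TSO1-like CXC 3 (GRMZM2G153754), Rop guanine nucleotide exchange factor 7 (GRMZM2G065423) and ubiquitin-conjugating enzyme E2 I (GRMZM2G341089), each with r = 0.996 and each called lower. For WOX9-like they were patellin-5 (GRMZM2G086637), the E3 ubiquitin ligase EL5 (GRMZM2G049070) and an NPH3 family protein (GRMZM2G040115), each with r = 0.997 and each called lower. Patellin-5 was at 35.38, 18.7 and 28.89 FPKM in WT and at 4.41, 2.84 and 5.12 FPKM in zmte1-2, with library 2 lowest as for WOX9-like. For BEL1-related 14 they were receptor-like kinase RK20-1 (GRMZM2G075438, r = 0.977), glutathione transferase GSTU6 (GRMZM2G056388, r = 0.975) and the AAA-ATPase ASD (GRMZM2G310947, r = 0.972). RK20-1 was at 8.7, 25.88 and 20.07 FPKM in WT and at 46.71, 55.41 and 56.46 FPKM in zmte1-2 and rose by 1.64 on the log2 scale (limma adjusted p = 0.0408). Its lowest value was in WT library 1 and its highest in zmte1-2 library 3, as for BEL1-related 14.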

How the data were processed

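The authors deposited 1 table of 5546 genes with FPKM of 6 libraries; aligner, counting method and build: not given in the sources used here. It holds genes the authors had called, so genes outside it were not analysed here, and an adjusted p is no share of false calls. Columns of the authors' log2 ratios, p-values and q-values, also between single libraries, and 2 further FPKM columns of means were not used. Mutant columns, named after zm66, were matched to titles by node number, which was taken as a replicate number. Whether that number is a replicate or a node position is not stated. The labels name a Qiagen kit for the RNA and the paper TRIzol.

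log2(FPKM + 0.5) of the 3987 genes with at least 1 FPKM in at least 3 libraries was compared with limma 3.58.1 in R 4.3.3 (trend, two-sided, Benjamini-Hochberg, adjusted p under 0.05), tested on simulated data. Figures used Python 3.11.15 and matplotlib 3.10.9. The genes, 9 lists (by deposited description, transcription factor family or orthology), tests and 14 alternatives were chosen with earlier results of these data known. Besides the 4 genes and all listed WOX, KNOX and BELL genes, the rule for names took the 3 most abundant genes and the 2 with the smallest p of a list, of which a part is named, and the 3 genes most correlated with each of the 4. A list of 3 vascular genes had 2 tested, both called lower, HOX32 among them. RefSeq (Zm-B73-REFERENCE-NAM-5.0) matched 3260 listed genes by synonym, the 4 included, and was used for names only. Sequences were not used here. Depth per library is unknown, and low values have no counting interval.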

Additional observations from a re-analysis of the deposited data

How the results depend on the processing

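Over 14 alternatives no fold change of the 4 genes changed direction. WOX9-like and BEL1-related 14, whose groups did not overlap, could change direction only under the rescaling, and WOX4-like, at 0 in zmte1-2, under none. Median-of-ratios rescaling called BEL1-related 14 higher (1.67), so 1 of the 4 was higher, with 206 lower and 532 higher over all genes and 2 lower and 2 higher among the other homeobox genes. A minimum of 1 FPKM on the mean over all libraries left WOX4-like untested, so 1 of the 4 was lower. With zmte1-2 library 2 and WT library 1 both left out, KN1 was called (-1.86), and 755 genes, 7 other homeobox genes among them, were higher. With the replicate number as a block, WOX4-like (limma adjusted p = 0.0531) and WOX9-like (-1.92, limma adjusted p = 0.0540) lost their calls, leaving 0 of the 4 and 0 other homeobox genes lower and 1 gene lower and 1 higher in all. Deviations of same-numbered libraries correlated at -0.30, -0.40 and 0.41 over 3987 genes, which does not settle whether the numbers pair the libraries. With 1 library left out and the tested genes kept, the fold change ran from -2.08 to -0.96 for KN1, from -2.13 to -1.72 for WOX9-like and from 0.64 to 1.11 for BEL1-related 14, and the limma adjusted p of WOX4-like from 0.00483 to 0.0689. Of the 4 genes 0 to 3 were then lower and 0 higher, of all genes 1 to 1949 lower and 1 to 805 higher, and of the other homeobox genes 0 to 9 lower and 0 to 6 higher. All-gene counts were lowest without zmte1-2 library 1 (1 lower, 1 higher) or WT library 3 (2 lower, 1 higher), also low without WT library 1 (148 lower, 10 higher), 1015 lower and 164 higher without WT library 2, 701 lower and 74 higher without zmte1-2 library 3, and highest without zmte1-2 library 2 (1949 lower, 805 higher). The other homeobox genes called lower numbered 1 without WT library 1, 0 without WT library 3 or zmte1-2 library 1, and 2 without zmte1-2 library 3. Of the other counts over lists under alternatives, 81 moved by over 1.5 times or to or from 0, and 143 did not. Many of the 143 were counts of 0 that stayed at 0, which is no sign of stability. Apart from the tests left with fewer libraries or genes, the cause of these differences was not tested. Unknown depth limits the WOX and BELL genes most, since their values were near 1 FPKM.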
